A study of Mus musculus with 23 samples.

Results

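Cancer-associated fibroblasts (CAFs) of Pan02 tumors were represented by 2 RNA-seq libraries of the 23 samples in the series, which held 8 CAF libraries and 15 whole tumors. The 2 libraries were chosen by their model label, Pan02, a mouse pancreatic ductal carcinoma line, and were set against 6 CAF libraries from tumors of the EO771.LMB breast carcinoma line (called EO771), the LL2 lung carcinoma line and the MC38 colon carcinoma line, with 2 libraries each. In every group 500000 cultured cancer cells were engrafted subcutaneously in the flank of adult female C57BL/6 mice, engraftment being the only treatment that the labels give, and CAFs were sorted at endpoint as FAP+ cells after depletion of CD45+ leukocytes. The flank is not the organ of origin of any of these lines. The 2 libraries of a model came from separate rounds of sorting. The sources used here do not say how many tumors went into a sort, so p-values measure only the spread between sorts. Whole tumors were fragments of 3 tumors per model. They were used here as a second set of libraries of the same models.

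CAFs are the connective tissue cells of a tumor. They lay down collagen and other matrix, secrete growth factors and chemokines, and are often divided into contractile myofibroblastic cells (myCAF), cytokine-secreting inflammatory cells (iCAF) and cells carrying MHC class II molecules (antigen-presenting, apCAF). Tspan8 encodes a tetraspanin found at the surface of many epithelial carcinomas, Notum encodes a secreted enzyme that removes the lipid from Wnt proteins and so inactivates them, and Cd74 encodes the invariant chain, which chaperones class II molecules to the compartment where peptides are loaded.

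Levels are given as RPKM (mapped reads scaled by transcript length and library size), and log2 fold changes as differences of log2(RPKM + 1) between Pan02 CAFs and the mean of the 3 other model means, which understates the change of genes near 0. A gene was called when the limma adjusted p was under 0.05 and the log2 fold change was at least 1 either way. Between 9267779 and 22841681 reads lay behind the RPKM values of a library. The 2 Pan02 libraries lay closer to each other (distance 42.0 over the log2 values of all genes tested) than either lay to any other library (110.0 to 141.2). MC38 replicate 2 stood apart from its partner (distance 63.9), with the fewest reads and lower matrix genes, for example Col1a1 at 2771 and 467 RPKM in the 2 MC38 libraries.

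The label was checked against markers. The 20 fibroblast identity genes summed to 9813 and 7024 RPKM in the 2 Pan02 libraries, 17153 and 16162 in EO771, 14451 and 12943 in LL2 and 12978 and 4533 in MC38 CAFs, and were thus lower in Pan02 than in all libraries but MC38 replicate 2. Among them, Col1a1, a chain of type I collagen, was at 1535 and 795 RPKM, Dcn, a small proteoglycan, at 354 and 540.3 RPKM, and Pdgfra, a growth factor receptor of fibroblasts, at 18.4 and 27.5 RPKM. Fap, the gene of the protein used for the sort, was at 3.28 and 1.89 RPKM, below all 6 other libraries (4.29 to 11.4 RPKM). Ptprc, which encodes the CD45 antigen used for depletion, was at 0.090 and 0.092 RPKM. The epithelial genes listed for this check were present as well. Their summed level was 1224 and 1533 RPKM in the 2 Pan02 libraries, against 508 and 518 in EO771, 229 and 229.7 in LL2 and 18.5 and 14.5 in MC38 CAFs. Of the 34 epithelial genes, 16 stayed under 1 RPKM in both Pan02 libraries, among them Krt20, Esrp1, Grhl2 and Muc4, and Agr2 was at 0 and 0.075 RPKM. The part of epithelial cells, including Pan02 cancer cells, in the differences below was not tested. Nor was the part of EO771, LL2 and MC38 cancer cells in the other CAF libraries. In libraries of sorted bulk cells, fewer cells of a type and less RNA per cell cannot be told apart.

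Of 13598 genes tested, 1323 (9.73%) were higher and 1144 (8.41%) were lower in Pan02 CAFs than in the mean of the other models. Against each of the 3 models separately, 678 genes (4.99%) were higher in all 3 comparisons and 340 (2.50%) were lower in all 3. Both Pan02 libraries lay above all 6 others for 2717 genes (20.0%) and below all 6 for 2089 (15.4%). The 3 pairwise comparisons share the Pan02 libraries. In whole tumors, where TMM-normalised counts were tested with edgeR, 2850 of 15706 genes (18.1%) were higher in Pan02 than in the mean of EO771, LL2 and MC38 tumors, and 1343 (8.55%) were lower. Of the genes higher in Pan02 CAFs that could be tested in tumors, 931 of 1300 (71.6%) were higher in Pan02 tumors too, which was 44.1% of the 2110 genes higher in tumors, and 0 were lower. Of those lower in Pan02 CAFs, 426 of 1122 (38.0%) were lower in Pan02 tumors, which was 36.2% of 1177, and 130 (11.6%) were higher there.

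**Figure D1:**
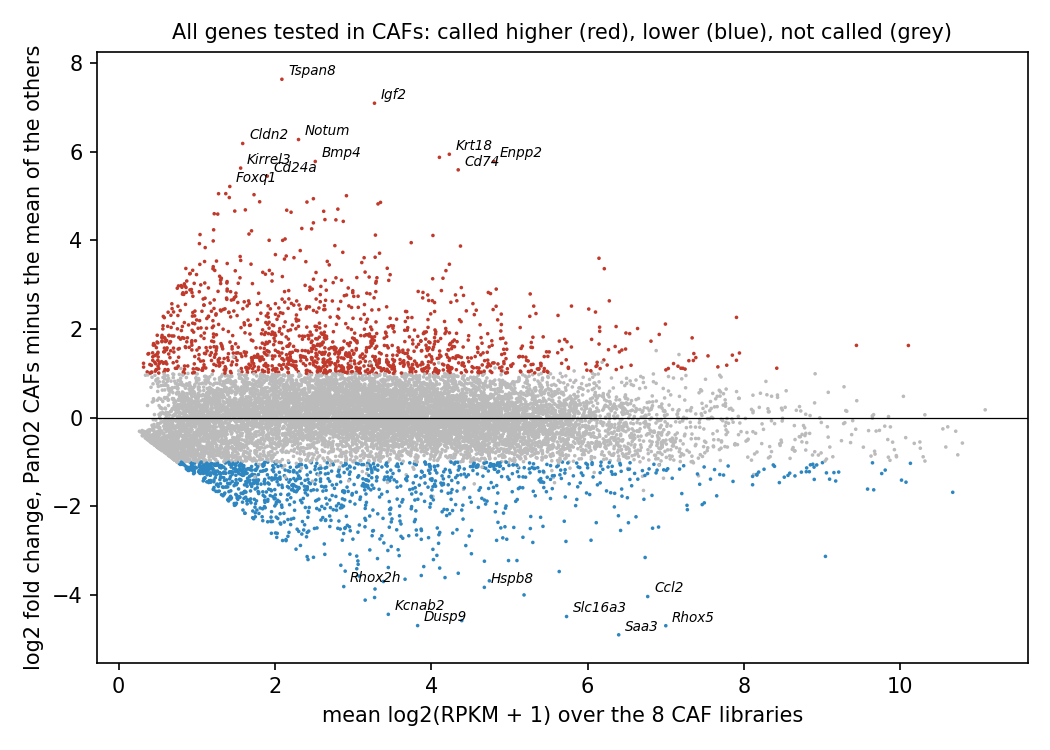
Every gene tested in CAFs, by its mean level over the 8 libraries (x axis, log2(RPKM + 1)) and its log2 fold change, Pan02 CAFs minus the mean of the other models (y axis). Red points are the 1323 genes called higher and blue points the 1144 called lower. Tspan8 lies at the top with 7.63 and Saa3 at the bottom with -4.89.

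Tspan8 showed the largest rise of the genes called higher on the log2(RPKM + 1) scale. It stood at 214 and 233 RPKM in Pan02 CAFs, 0.11 and 0.20 in EO771, 0.11 and 0.21 in LL2 and 0.028 and 0.16 in MC38 CAFs. No library outside Pan02 reached 1 RPKM, and the difference was 7.63 ± 0.12 on the log2 scale (SE, limma adjusted p = 1.9e-07). The gene lies at chr10:115817284-115849893 (mm10). Whole Pan02 tumors held 152, 202 and 231 CPM (counts scaled by library size) of Tspan8, against 0.43 to 2.94 CPM in the 9 tumors of the other 3 models.

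Notum was also highest in the Pan02 libraries. Its level was 128 and 126 RPKM in Pan02 CAFs, 0.24 and 0.19 in EO771, 1.41 and 1.23 in LL2 and 0.83 and 0.46 in MC38 CAFs, a log2 difference of 6.27 ± 0.12 (limma adjusted p = 5.1e-07). The 2 Pan02 libraries were nearly equal and far above the rest. Notum lies at chr11:120653789-120660837, and 38.1% of its annotated exon bases are shared with Notumos and Myadml2os, from which unstranded reads cannot tell it apart. Pan02 tumors held 93.95, 138 and 235 CPM of Notum and the other tumors 0.29 to 3.28 CPM.

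Cd74 differed in a more graded way. It was at 556 and 246 RPKM in Pan02 CAFs, 51.2 and 69.1 in EO771, 1.27 and 1.06 in LL2 and 2.71 and 2.31 in MC38 CAFs. The Pan02 libraries were the highest but differed from each other by a factor of 2.26, EO771 CAFs were intermediate, and LL2 and MC38 CAFs were near 0. The log2 difference was 5.59 ± 0.28 against the mean (limma adjusted p = 7.7e-06), 2.62 against EO771, 7.42 against LL2 and 6.73 against MC38. In tumors Cd74 was at 1684, 4592 and 4854 CPM in Pan02 and at 217 to 1849.9 CPM in the others, so that those groups overlapped.

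**Figure D2:**
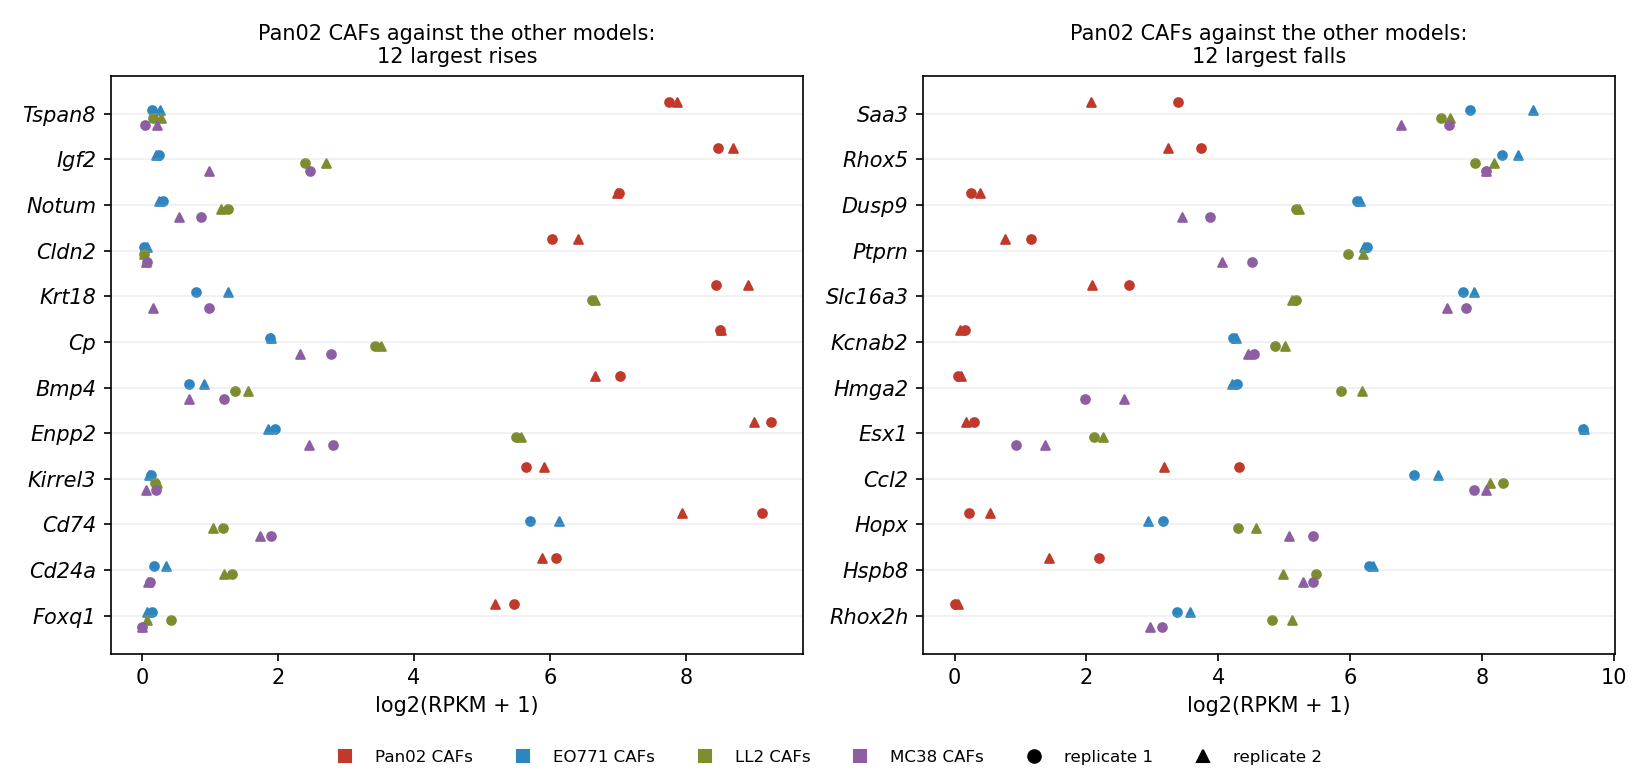
Level of each named gene in each of the 8 CAF libraries (x axis, log2(RPKM + 1)), with Pan02 in red. In the left panel the Pan02 libraries lie above all others for each of the 12 genes with the largest rises, and in the right panel they are lower than all others for each of the 12 with the largest falls.

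A further 9 genes completed the 12 largest rises among 778 genes that were called, above all 6 other libraries and at 10 RPKM or more. Igf2, a fetal growth factor, was at 356 and 415 RPKM in Pan02 CAFs and 0.15 to 5.51 RPKM elsewhere (log2 difference 7.09). Annotated Gm49394 and Igf2os share 64.5% of its exon bases. Bmp4, a ligand of the BMP pathway, was at 129.6 and 101 RPKM against 0.61 to 1.95 RPKM (log2 difference 5.78). These secreted factors were thus near 1 RPKM or a few RPKM in the other models and above 100 RPKM in Pan02. Enpp2, which encodes autotaxin, the enzyme that makes lysophosphatidic acid, was at 611 and 514 RPKM, with 44.4 and 46.6 RPKM in LL2 and 5.98 RPKM or less in EO771 and MC38. Cp, the copper carrier ceruloplasmin, was at 360.2 and 365 RPKM against 2.69 to 10.4 RPKM.

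The other members of that set were genes of epithelial cells or surface proteins. Krt18, an intermediate filament of simple epithelia, was at 349 and 483 RPKM in Pan02 CAFs, 0.73 and 1.399 in EO771, 97.2 and 101 in LL2 and 0.98 and 0.12 in MC38 CAFs. Cldn2, a claudin of tight junctions, was at 64.5 and 84.2 RPKM and at 0.05 RPKM or less in the 6 other libraries. Cd24a, a surface sialoprotein, was at 66.9 and 58.2 RPKM against 0.060 to 1.49 RPKM, and Kirrel3, an adhesion protein, at 49.3 and 59.1 against 0.044 to 0.17 RPKM. Foxq1, a forkhead transcription factor, was at 43.2 and 35.7 RPKM against 0 to 0.34 RPKM, with 66.1% of its exon bases shared with A530084C06Rik. Each of the 12 genes was also called higher in Pan02 tumors by edgeR, beside 18.1% of all genes tested in tumors. Of the genes higher in CAFs that could be tested in tumors, 71.6% were. The tumor values of Cd74 overlapped with those of the other 3 models.

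Epithelial genes were higher in 12 of 17 tested members and lower in 0, beside 9.73% and 8.41% of all genes tested, and 0 were lower at an unadjusted p under 0.05 by limma or by edgeR calls. Their median log2 difference was 2.13, against 2.9e-04 over all genes tested. With edgeR on the reads behind the RPKM values, 17 of the 34 listed genes were called higher. That fit used its own expression filter, so these need not be the 17 tested by limma. Without Pan02 replicate 1, 7 were called higher, but Tspan8, Ehf, Cdh1 and Spint1 no longer passed the filter of 1 RPKM in 2 libraries and could not be tested. In the limma fit, 17 of the 34 did not pass the filter of 1 RPKM in 2 libraries, so its count covers only members that were high somewhere. Krt19, a duct keratin, was at 82.4 and 81.4 RPKM against 0.77 to 15.9 RPKM, and Krt7 at 49.5 and 49.5 against 0.38 to 2.55 RPKM. Cdh1, the epithelial cadherin, was at 14.1 and 10.5 RPKM and under 1 RPKM in the others (log2 difference 3.36). Ehf, an epithelial transcription factor of the ETS family, was at 23.03 and 26.02 RPKM against 0 to 0.11 RPKM. Krt8, the partner of Krt18, was at 385 and 545 RPKM and was as high in EO771 CAFs, at 492 and 495 RPKM, with 0.27 RPKM or less in MC38. Epcam, a surface marker of carcinoma cells, was at 2.08 and 0.76 RPKM and was not called (log2 difference 0.42, limma adjusted p = 0.14). In whole tumors 19 of 27 tested epithelial genes were higher in Pan02 and 1, Grhl2, was lower, beside 18.1% and 8.55% of all genes tested in tumors.

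The mesothelial list, which also holds Krt19, had 2 of 4 tested members called higher and 0 lower, beside 9.73% and 8.41% of all genes tested. The 4 are the members that passed the filter of 1 RPKM in 2 libraries. Msln, the surface protein mesothelin, was at 131 and 142 RPKM, against 35.7 and 31.6 RPKM in MC38 and 4.08 RPKM or less in EO771 and LL2 CAFs. Wt1 and Upk3b, which define mesothelium, were under 1 RPKM in all 8 libraries. Of 8 keratinocyte genes tested, 2 were called higher and 1, Krt17, lower (log2 difference -1.93), beside 9.73% and 8.41% of all genes tested. The 16 keratinocyte genes summed to 45.8 and 52.8 RPKM in Pan02 and to 77.7 and 71.4 RPKM in EO771 CAFs. In LL2 and MC38 CAFs the sums were 5.476 to 8.985 RPKM. Trp63, a regulator of stratified epithelium, was at 13.4 and 6.89 RPKM against 0.014 to 0.41 RPKM. Slurp1, a secreted epidermal peptide, was at 17.2 and 36.7 against 0 to 0.58 RPKM. Krt5 and Krt1 were under 1 RPKM throughout. With either Pan02 library left out, neither Trp63 nor Slurp1 passed the filter, so neither could be tested.

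Of the Wnt pathway, Wnt10a and several Frizzled receptor genes were higher in Pan02 CAFs. Wnt proteins are lipid-modified by Porcn, carried to the surface by Wls and bound by Frizzled receptors (Fzd genes). Of the ligands, receptors and their partners, 13 of 28 tested were called higher and 1 lower (median log2 difference 0.90), beside 9.73% and 8.41% of all genes tested. Without MC38 replicate 2, 4 were called lower, and 3 with edgeR. Among ligands, Wnt10a was at 65.3 and 79.8 RPKM against 0.47 to 7.15 RPKM (log2 difference 4.43 ± 0.12, limma adjusted p = 8.3e-07). Wnt6 was at 11.96 and 17.4 RPKM against 0.19 to 6.499 RPKM and Wnt4 at 5.92 and 4.11 against 0.14 to 0.80 RPKM. Wnt7b, at 52.5 and 60.2 RPKM, was called against the mean but was no higher than in EO771 CAFs (62.6 and 66.1 RPKM). The ligand called lower was Wnt5b, at 0.35 and 0.28 RPKM against 0.38 to 4.67 RPKM. Wnt2 and Wnt5a, at 1.05 and 1.37 and at 1.26 and 0.65 RPKM, lay within the range of the other libraries and were not called.

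Of the Frizzled genes tested, Fzd1, Fzd2, Fzd5, Fzd6, Fzd7 and Fzd8 were called higher, and Fzd4 and Fzd9 were not. Fzd1 was at 137 and 96.6 RPKM against 4.69 to 27.1 RPKM, Fzd6 at 18.03 and 19.4 against 0.053 to 3.25 RPKM, and Fzd7 at 26.1 and 29.1 against 2.43 to 6.34 RPKM. Porcn was at 21.00 and 17.5 RPKM against 1.82 to 8.98 RPKM (log2 difference 1.76). The co-receptors Lrp5 and Lrp6 were not called (log2 differences -0.09 and 0.68).

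Among Wnt targets and inhibitors, 5 of 19 tested were called higher and 1 lower, beside 9.73% and 8.41% of all genes tested. Those higher were Notum, Lgr5, Rnf43, Tcf7 and Ccnd1, and the median log2 difference of the list was -0.01. Without Pan02 replicate 2, 3 were called higher, with Rnf43 no longer passing the filter, and without MC38 replicate 2, 4 were called lower. Lgr5, a receptor of R-spondins and a stem cell marker, was at 21.8 and 31.8 RPKM against 0.065 to 1.79 RPKM (log2 difference 4.14). Rnf43, a ligase that removes Frizzled proteins, was at 4.51 and 5.04 RPKM against 0.071 to 0.89 RPKM. Axin2, a target used as a general readout of the pathway, was at 1.08 and 1.22 RPKM, within the range of the others (0.57 to 3.33 RPKM), and was not called. The secreted Frizzled-related inhibitors Sfrp1, Sfrp2 and Sfrp4 were not called either, with log2 differences of -0.33, -0.91 and -1.11. The member called lower was Dkk2, a Wnt antagonist, which was at 1.03 and 0.77 RPKM in Pan02 and at 133 and 156 RPKM in LL2 CAFs, with 3.52 RPKM or less in EO771 and MC38.

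Among MHC class II genes, the classical chains, the invariant chain, peptide loaders and Ciita were higher, and other members were not. Of the list, 8 of 14 tested members were called higher and 1 lower (median log2 difference 1.90), beside 9.73% and 8.41% of all genes tested, and 6 were higher than in each of the 3 other models. Their summed level was 1269 and 619 RPKM in the 2 Pan02 libraries against 75.7 to 326 RPKM in the others. The chains H2-Aa, H2-Ab1 and H2-Eb1 form the molecules that present peptides to helper T cells. H2-Aa was at 173 and 85.04 RPKM in Pan02 CAFs, 17.9 and 24.9 in EO771, 0.58 and 0.41 in LL2 and 1.78 and 1.17 in MC38 CAFs (log2 difference 4.82 ± 0.27, limma adjusted p = 1.1e-05). H2-Eb1 was at 176 and 90.5 RPKM against 0.43 to 22.9 RPKM, and H2-Ab1 was at 232 and 102 RPKM in Pan02 CAFs (log2 difference 3.87). As for Cd74, EO771 CAFs came next in order and LL2 and MC38 CAFs were lowest for H2-Aa and H2-Eb1.

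Ciita, the master coactivator of class II genes, was at 5.55 and 2.102 RPKM in Pan02 CAFs and 0.022 to 0.13 RPKM in the 6 others (log2 difference 2.06 ± 0.25, limma adjusted p = 4.8e-04). The loaders H2-DMa and H2-DMb1, which exchange peptides, were at 31.1 and 14.8 and at 34.5 and 15.03 RPKM, and MC38 CAFs, low for the classical chains, reached 12.5 and 8.99 and 12.4 and 10.1 RPKM. The promoter-binding subunits Rfx5, Rfxap and Rfxank were not called (log2 differences 0.18, -0.28 and -0.57). Ifi30, a thiol reductase of the loading compartment, was the member called lower, at 25.8 and 28.1 RPKM against 39.9 to 152 RPKM. Class I genes were called higher in 1 of 17 (H2-T23) and lower in 2 (H2-Q6 and H2-Q7), beside 9.73% and 8.41% of all genes tested. H2-T23 lost its call without either Pan02 library, and 1 to 3 class I genes were called lower without them.

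For 3 of the class II genes that were higher, the 150 bases before the start are shown (RefSeq, GRCm38.p6, 5′ to 3′ on the strand of the gene). Capitals mark the core of the Y box, searched as CCAAT on both strands, and the core of the X box, searched as AG, 2 bases of any kind, AC, 1 base of any kind and GATG on both strands.
H2-Aa, chr17:34287824-34287973, minus strand: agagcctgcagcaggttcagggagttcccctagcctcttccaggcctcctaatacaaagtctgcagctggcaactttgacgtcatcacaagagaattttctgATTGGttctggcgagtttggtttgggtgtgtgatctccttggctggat
H2-Eb1, chr17:34305717-34305866, plus strand: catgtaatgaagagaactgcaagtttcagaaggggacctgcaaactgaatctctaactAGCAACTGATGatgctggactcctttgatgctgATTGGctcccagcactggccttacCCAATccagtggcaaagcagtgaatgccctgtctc
H2-DMb1, chr17:34153041-34153190, plus strand: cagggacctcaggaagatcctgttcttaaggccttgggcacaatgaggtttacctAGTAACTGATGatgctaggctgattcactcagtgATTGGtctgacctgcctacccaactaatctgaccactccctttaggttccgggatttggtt
The Y box letters stood in the 250 bases before the start in 5 of 5 genes of the list that were called higher and matched a promoter, and in 3 of 4 that were tested and not called, beside 33.8% of 32851 promoters. The X box letters stood in 2 of those 5 genes and in 1 of the 4 not called, beside 0.816% of all promoters. Cd74, H2-Ab1 and Ciita were not matched. These matches describe the sequences only.

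Leukocyte markers were set beside the class II genes, since leukocytes also carry class II molecules. The 12 leukocyte genes summed to 24.2 and 41.8 RPKM in the 2 Pan02 libraries, 58.2 and 65.8 in EO771, 17.2 and 20.2 in LL2 and 11.4 and 12.1 in MC38 CAFs, and 9 of the 12 stayed under 1 RPKM in both Pan02 libraries. The 16 macrophage genes summed to 67.5 and 86.6 RPKM in Pan02, 256 and 317 in EO771, 26.5 and 24.6 in LL2 and 28.7 and 23.9 in MC38 CAFs. The 11 dendritic cell genes summed to 28.4 and 17.4 RPKM in Pan02 and 159.6 to 259 RPKM in the other libraries. That difference rested mainly on Fscn1 (log2 difference -3.15). The next largest fall was Itgax (-1.26), and 9 of the 11 stayed under 1 RPKM in both Pan02 libraries. Within EO771 CAFs, C1qa, a macrophage complement chain, was at 44.02 and 58.4 RPKM, against 3.33 and 5.29 RPKM in Pan02 CAFs. Itgax and Cd3e, which mark dendritic and T cells, were at 0.11 RPKM or less in Pan02 CAFs. The leukocyte and macrophage sums were higher in Pan02 than in LL2 and MC38 CAFs and lower than in EO771 CAFs, and their part in the class II levels was not tested. Members called higher were Cd53, a tetraspanin of leukocytes, at 16.1 and 28.1 RPKM against 0.039 to 7.71 RPKM, and Cd14, a lipopolysaccharide co-receptor, at 35.1 and 42.2 against 4.56 to 9.97 RPKM. Each was a large part of its Pan02 sums, Cd53 of the leukocyte sums and Cd14 of the macrophage sums. Of 10 leukocyte genes tested, 1 was called higher and 3 lower (median log2 difference -0.62). Of 16 macrophage genes, 1 was higher and 0 lower by limma (median -0.27), beside 9.73% and 8.41% of all genes tested.

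Of genes described in apCAFs, 8 of 17 tested were higher and 5 lower, beside 9.73% and 8.41% of all genes tested. Those higher were Cd74, the 3 class II chains, Msln and the keratins Krt8, Krt18 and Krt19. Those lower were Saa3, Clu, Lcn2, Ptgis and Arhgdib, and 3 were called lower without Pan02 replicate 2. Saa3, an acute phase protein, was at 9.47 and 3.19 RPKM in Pan02 CAFs, 225 and 437 in EO771, 165 and 181 in LL2 and 179 and 108 in MC38 CAFs (log2 difference -4.89 ± 0.39, limma adjusted p = 6.1e-05). Both Pan02 libraries lay under 10 RPKM and all others above 100 RPKM. Clu, a secreted chaperone, was at 22.4 and 17.4 RPKM against 61.2 to 84.8 RPKM.

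Genes that interferons induce went both ways, with 12 of 36 higher and 10 lower (median log2 difference -0.0017), beside 9.73% and 8.41% of all genes tested. Those higher included Ifit2, Ifit3 and GTPases of the guanylate-binding (Gbp2 to Gbp6) and immunity-related (Igtp, Irgm1, Irgm2, Iigp1) families, which act against intracellular pathogens. Gbp2 was at 171 and 95.3 RPKM in Pan02 CAFs, 11.5 and 11.2 in EO771, 11.8 and 11.7 in LL2 and 31.8 and 31.2 in MC38 CAFs (log2 difference 2.90 ± 0.20, limma adjusted p = 2.8e-05). Iigp1 was at 75.8 and 30.4 RPKM against 4.79 to 22.4 RPKM, and Igtp at 105 and 49.9 against 7.19 to 54.7 RPKM. For Igtp the lower Pan02 library lay within the range of MC38 CAFs. Members of these families are close copies of each other, and their reads could be split between them.

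The interferon genes called lower included Isg15, a ubiquitin-like protein, Usp18, and Mx1, Oas1a, Oas2, Rsad2 and Bst2, of which the last 5 restrict viruses. Of the 10, 9 were called against MC38 CAFs, and Irf8, a transcription factor of myeloid cells, against EO771 CAFs. Isg15 was at 26.05 and 19.8 RPKM in Pan02, 35.5 and 38.6 in EO771, 9.34 and 15.9 in LL2 and 492 and 331 RPKM in MC38 CAFs. The log2 difference of Isg15 was -4.09 against MC38, -0.68 against EO771 and 0.84 against LL2. Mx1 was at 0.98 and 0.86 RPKM in Pan02 and 22.05 and 31.9 RPKM in MC38, with 1.52 RPKM or less in EO771 and LL2. None of the 10 was lower than in all 3 other models, while 5 of the 12 were higher than in all 3.

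Promoters of 2 interferon genes that were higher (Gbp2, Igtp) and 1 that was lower (Isg15) are shown in the same way, with capitals for the interferon-stimulated response element, searched as GAAA, 2 bases of any kind and GAAA on both strands.
Gbp2, chr3:142620513-142620662, plus strand: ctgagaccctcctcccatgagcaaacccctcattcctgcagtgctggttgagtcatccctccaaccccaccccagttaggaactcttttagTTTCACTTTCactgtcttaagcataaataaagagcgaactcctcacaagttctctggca
Igtp, chr11:58199406-58199555, plus strand: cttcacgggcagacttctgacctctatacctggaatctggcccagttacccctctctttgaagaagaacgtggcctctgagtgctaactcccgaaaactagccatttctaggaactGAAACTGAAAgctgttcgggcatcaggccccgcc
Isg15, chr4:156200819-156200968, minus strand: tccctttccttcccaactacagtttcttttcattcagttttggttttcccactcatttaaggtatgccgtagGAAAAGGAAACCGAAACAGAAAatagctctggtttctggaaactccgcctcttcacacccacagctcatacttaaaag
Overlapping matches in Isg15 form a single capital run. The element stood before 7 of 8 genes called higher and 5 of 7 called lower that matched a promoter, and before 5 of 12 not called, beside 2.98% of all promoters. The gamma-activated site, searched as TTCNNNGAA, which reads the same on both strands, stood before 4 of 8 higher, 3 of 7 lower and 2 of 12 genes not called, beside 7.02% of all promoters.

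Several chemokines that attract neutrophils were higher, and several that attract monocytes and eosinophils were lower. Of the chemokine list, 5 of 26 tested were called higher and 11 lower (median log2 difference -0.83), beside 9.73% and 8.41% of all genes tested. Without Pan02 replicate 2, 6 were called lower. Cxcl2, Cxcl3 and Cxcl5 attract neutrophils through Cxcr2. Cxcl2 was at 151 and 70.3 RPKM in Pan02 CAFs, 20.99 and 25.3 in EO771, 10.4 and 3.42 in LL2 and 0.56 and 1.102 in MC38 CAFs (log2 difference 3.95 ± 0.40, limma adjusted p = 1.9e-04). Cxcl3 was at 30.6 and 36.02 RPKM against 0.37 to 2.88 RPKM and Cxcl5 at 94.9 and 61.9 against 2.45 to 29.8 RPKM. Cxcl1, of the same receptor, went the other way, at 29.9 and 25.4 RPKM against 30.5 to 260.4 RPKM. Cx3cl1 (fractalkine) was at 39.7 and 22.4 RPKM against 4.63 to 17.3 RPKM, and Cxcl15 was at 4.47 and 1.69 RPKM.

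Ccl2, the main attractant of monocytes, was at 18.9 and 8.06 RPKM in Pan02 CAFs, 124 and 159 in EO771, 319 and 277 in LL2 and 234 and 267 in MC38 CAFs (log2 difference -4.03 ± 0.28, limma adjusted p = 3.0e-05). Both Pan02 values lay under 20 RPKM and the others above 100 RPKM. Ccl7, a close relative, was at 10.9 and 4.65 RPKM against 68.4 to 128 RPKM, and Ccl11 (eotaxin) at 7.64 and 5.31 against 11.01 to 86.5 RPKM. Cxcl12, which retains leukocytes in stroma through Cxcr4, was at 21.6 and 10.5 RPKM against 19.5 to 89.7 RPKM, so that MC38 replicate 2 overlapped with Pan02. In tumors Ccl2 was also lower in Pan02 (log2 difference -2.25, edgeR adjusted p = 4.3e-04), whereas Ccl11 was higher (2.11, edgeR adjusted p = 0.0063).

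Of the iCAF genes, 5 of 24 tested were higher (Il11, Cxcl2, Cxcl5, Ly6a and Ptgs2) and 8 lower (median log2 difference -0.59), beside 9.73% and 8.41% of all genes tested. Without Pan02 replicate 1, 2 were called higher, and without Pan02 replicate 2, 4 were called lower. Il6, the defining cytokine, was at 4.97 and 1.61 RPKM against 1.85 to 16.5 RPKM in the others, and was not called (log2 difference -0.50, limma adjusted p = 0.29). Il11, a related cytokine, was at 17.3 and 6.904 RPKM against 2.74 to 4.33 RPKM. Ptgs2, which makes prostaglandins, was at 55.96 and 24.1 RPKM, and its lower Pan02 value lay within the range of the others (7.99 to 28.8 RPKM). Il1r1, the receptor of interleukin 1, was lower, at 9.67 and 6.09 RPKM against 6.17 to 47.8 RPKM.

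Fibroblast identity genes were lower or not called, with 1 exception. Of 20, all tested, 5 were called lower (Col3a1, Thy1, Fap, Pdpn and Mmp2) and 1 higher (Fn1), with a median log2 difference of -0.63, against shares of 8.41% lower and 9.73% higher over all genes tested. Thy1, a surface protein of fibroblasts, was at 31.7 and 15.02 RPKM in Pan02 CAFs, 232 and 241 in EO771, 149 and 143 in LL2 and 162 and 27.3 in MC38 CAFs (log2 difference -2.54 ± 0.59, limma adjusted p = 0.0086). Fap was at 3.28 and 1.89 RPKM in Pan02 CAFs, 6.46 and 7.16 in EO771, 9.24 and 9.91 in LL2 and 11.4 and 4.29 in MC38 CAFs (log2 difference -1.31 ± 0.30, limma adjusted p = 0.0088). Col3a1 was at 954 and 486 RPKM against 589.7 to 3799 RPKM, and MC38 replicate 2 lay between the Pan02 values. Fn1, which encodes fibronectin, was at 1991 and 1321 RPKM in Pan02 CAFs, 438 and 339 in EO771, 1031 and 1005 in LL2 and 514 and 259 in MC38 CAFs and thus highest in Pan02. Without MC38 replicate 2, 10 of the 20 were called lower, and without Pan02 replicate 2, 2 were. The calls of Fap, Thy1 and Col3a1 were lost without Pan02 replicate 2 (limma adjusted p = 0.084, 0.083 and 0.15).

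The myCAF list holds contractile genes and others, such as the matrix genes Tnc, Postn and Col12a1. Its members were called higher in 0 of 20 by limma and lower in 4 (Actg2, Myh11, Des and Hopx). Their median log2 difference was -0.71, and the shares over all genes tested were 9.73% higher and 8.41% lower. At an unadjusted p under 0.05, 1 was higher (Tpm1), and edgeR on the reads behind the RPKM values also called 0 higher. Acta2, the smooth muscle actin that defines the class, was at 119 and 89.1 RPKM in Pan02 CAFs, 157 and 159.6 in EO771, 43.6 and 39.98 in LL2 and 229 and 30.3 in MC38 CAFs, and the Pan02 values lay in the middle of the range (log2 difference 0.32, limma adjusted p = 0.69). Without MC38 replicate 2, 9 of the 20 were called lower, and without Pan02 replicate 2, 1 was.

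**Figure D3:**
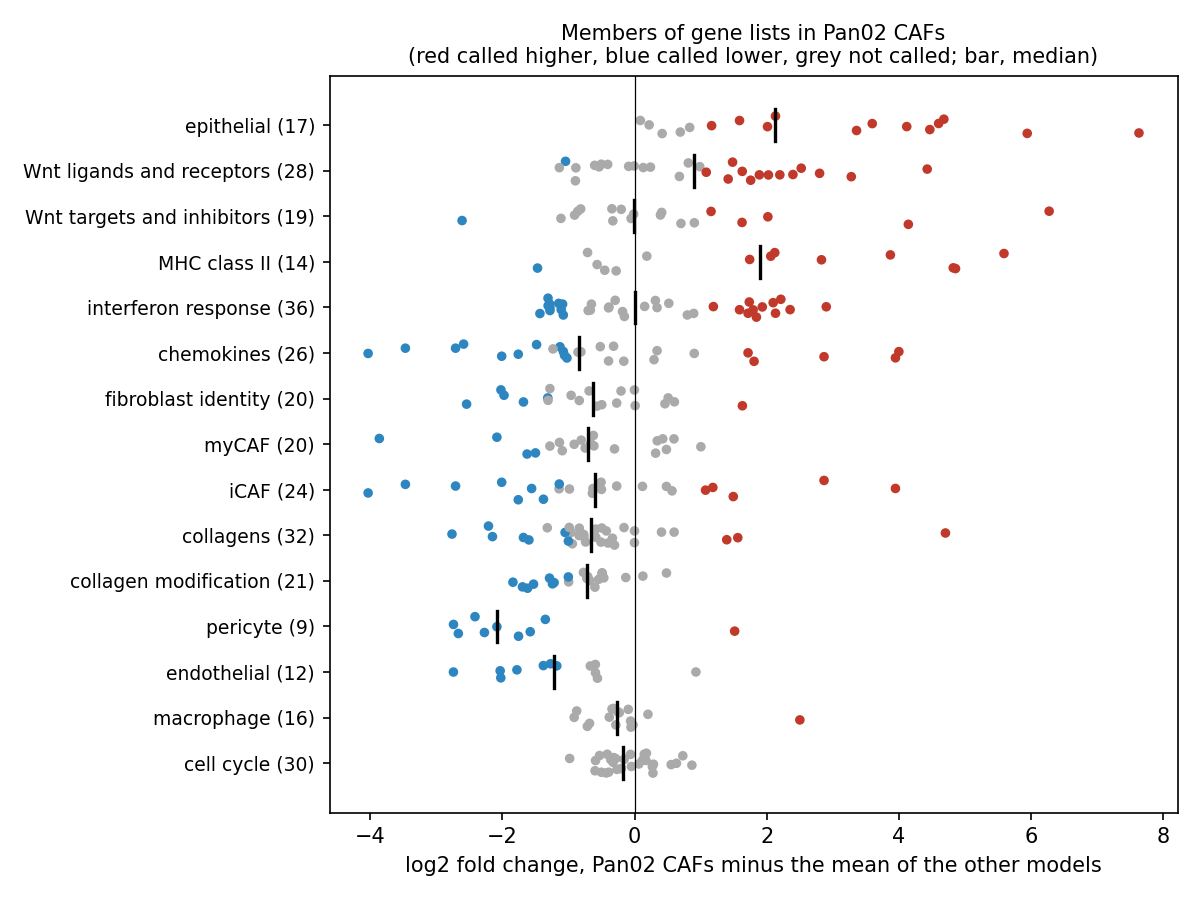
Log2 fold change in Pan02 CAFs of each tested member of 15 gene lists (points; red higher, blue lower, grey not called), with the list's median as a bar and its number of tested genes in parentheses. Epithelial and Wnt ligand and receptor genes lie mostly to the right of 0 (medians 2.13 and 0.90), and pericyte and endothelial genes to the left (-2.08 and -1.22).

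Of 32 collagen chains tested, 3 were higher (Col8a1, Col18a1 and Col28a1), a share near the 9.73% of all genes, and 7 were lower, beside 8.41% of all genes. The number lower moved to 11 without MC38 replicate 2 and to 4 without Pan02 replicate 2. Col28a1, a beaded-filament chain, was at 79.02 and 80.00 RPKM against 1.42 to 2.702 RPKM (log2 difference 4.70 ± 0.14, limma adjusted p = 1.2e-06). Col18a1, a basement membrane chain, was at 328 and 449 RPKM against 49.5 to 285 RPKM. Col16a1 was at 19.98 and 10.8 RPKM against 66.99 to 179 RPKM, and Col5a3 at 38.3 and 17.1 against 83.4 to 155 RPKM. Enzymes and chaperones of collagen were lower in 8 of 21 tested by limma and in 10 by edgeR on the reads behind the RPKM values. Both called 0 higher, and 1 (Loxl4) was higher at an unadjusted p under 0.05 by limma. Without Pan02 replicate 2, 4 were called lower. Plod1, which hydroxylates collagen lysines, was at 30.6 and 20.8 RPKM against 50.5 to 118 RPKM, and Serpinh1, the collagen chaperone, at 268 and 288 against 323 to 869 RPKM.

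Among 52 other matrix proteins, 10 were higher and 10 lower, beside 9.73% and 8.41% of all genes tested. Spp1 (osteopontin) was among the most abundant transcripts, at 2571 and 2566 RPKM in Pan02 CAFs, 687 and 735 in EO771, 762 and 888 in LL2 and 995 and 965 in MC38 CAFs (log2 difference 1.63 ± 0.17, limma adjusted p = 2.6e-04). Both Pan02 values exceeded all 6 others. Prelp, a leucine-rich proteoglycan, was at 126 and 147 RPKM against 11.1 to 41.7 RPKM. The basement membrane proteins Nid1 and Hspg2 were lower, at 21.3 and 9.74 and at 26.8 and 16.97 RPKM against 12.3 to 184 and 40.8 to 152 RPKM. Of the matrix metalloproteinases and their inhibitors, Mmp15, Mmp28 and Timp2 were higher, and Mmp2, Mmp3, Mmp9, Mmp10 and Mmp12 lower. Mmp2, a gelatinase of fibroblasts, was at 81.7 and 36.1 RPKM against 152 to 325 RPKM. Mmp28, a secreted enzyme of epithelia, was at 20.02 and 29.1 RPKM against 0.96 to 6.04 RPKM. Without MC38 replicate 2, 20 matrix proteins and 8 metalloproteinases or inhibitors were called lower, and without Pan02 replicate 2, 5 matrix proteins were.

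Signals of the TGF-beta and BMP family were higher in 10 of 35 tested and lower in 6 (median log2 difference 0.52), beside 9.73% and 8.41% of all genes tested. Beside Bmp4, Bmp7 was at 29.00 and 39.9 RPKM, as in EO771 (41.05 and 42.1 RPKM) and above LL2 and MC38 (1.07 RPKM or less). Fst (follistatin), an antagonist of activins, was at 118 and 107 RPKM against 1.31 to 27.6 RPKM, and Inhba, an activin subunit, at 21.6 and 17.5 against 2.08 to 13.9 RPKM. Smad6, an inhibitor that BMP signals induce, was at 9.35 and 8.64 RPKM against 1.01 to 3.34 RPKM. Grem1, a BMP antagonist, went the other way, at 0.68 and 0.44 RPKM against 4.89 to 32.6 RPKM.

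Paracrine growth factors and their partners were higher in 9 of 36 and lower in 7, beside 9.73% and 8.41% of all genes tested. Pdgfc was at 28.6 and 25.5 RPKM against 1.29 to 9.46 RPKM, Pdgfb at 15.3 and 13.5 against 0.48 to 4.26 RPKM, and Angpt1, a ligand of endothelial Tie2, at 21.6 and 7.06 against 0.73 to 3.06 RPKM. The EGF family ligands Hbegf, Nrg1 and Tgfa were called higher too, Tgfa at 3.39 and 2.82 RPKM against 0.024 to 0.30 RPKM. Igfbp4, which binds insulin-like growth factors, fell from 309 to 1871 RPKM in the other libraries to 147 and 72.1 RPKM in Pan02 (log2 difference -3.13 ± 0.32, limma adjusted p = 2.1e-04). Fgfr1 was at 41.2 and 29.2 RPKM against 91.98 to 162 RPKM, and Hgf at 0.75 and 1.15 RPKM, near EO771 (1.18 and 0.97 RPKM) and below LL2 and MC38 (6.15 to 7.597 RPKM).

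Apart from Tspan8 and Cd53, the tetraspanins called higher were Tspan15, Cd151 and Cd81, so that 5 of 26 tested were higher and 4 lower (2 without Pan02 replicate 2), beside 9.73% and 8.41% of all genes tested. Tspan15 was at 20.3 and 27.5 RPKM against 0.79 to 4.35 RPKM, and Cd151, a partner of integrins, at 158 and 173 against 38.5 to 68.8 RPKM. Immunosuppressive factors were called in 2 of 14, Ptgs2 higher and Nos2 lower (3 higher and 0 lower without Pan02 replicate 2). Complement genes were called in 4 of 18, Masp1 higher and C2, Cd55 and Clu lower (7 lower without MC38 replicate 2). The counts of higher genes in both lists, and of lower immunosuppressive genes, lie at or under the shares over all genes tested.

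The 12 largest falls came from 460 genes that were called lower, below all 6 other libraries and at 10 RPKM or more in the other models. Besides Saa3 and Ccl2, 3 of them are X-linked homeobox genes of germ line and placenta. Rhox5 was at 12.3 and 8.39 RPKM in Pan02 CAFs, 314 and 373 in EO771, 235 and 290.3 in LL2 and 267 and 266 in MC38 CAFs (log2 difference -4.69 ± 0.17, limma adjusted p = 2.5e-06). Rhox2h was at 0 and 0.036 RPKM against 6.77 to 33.8 RPKM, in a family of close copies whose reads may be shared. Esx1 was at 0.23 and 0.12 RPKM in Pan02, 3.33 and 3.77 in LL2, 0.90 and 1.59 in MC38 and 734 and 743 RPKM in EO771 CAFs, and was called against EO771 and LL2 but not against MC38 (log2 difference -0.92). Hmga2, a chromatin protein of embryonic cells, was at 0.033 and 0.068 RPKM against 2.96 to 71.6 RPKM. In whole tumors of the other 3 models Esx1 reached 1645 CPM. The part of EO771, LL2 and MC38 cancer cells in the 12 falls was not tested.

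The other falls were Dusp9, a phosphatase of MAP kinases, at 0.18 and 0.30 RPKM against 9.91 to 70.2 RPKM, and Slc16a3, the lactate exporter, at 5.29 and 3.25 against 33.8 to 235 RPKM. Ptprn, a protein of secretory granules, was at 1.23 and 0.69 RPKM against 15.7 to 75.5 RPKM. Kcnab2, a potassium channel subunit, was at 0.12 and 0.063 RPKM against 17.6 to 31.2 RPKM, and Hspb8, a small heat shock protein, at 3.56 and 1.698 against 30.6 to 80.1 RPKM. Hopx, a homeodomain cofactor with 27.2% of its exon bases shared with Hopxos, was at 0.17 and 0.46 RPKM against 6.602 to 42.5 RPKM. Of the 12, 11 were also lower in Pan02 tumors by edgeR, beside 8.55% of all genes tested in tumors. Of the genes lower in CAFs that could be tested in tumors, 38.0% were. Saa3 was not (log2 difference 0.45, edgeR adjusted p = 0.63), with 20.6, 27.2 and 44.97 CPM in Pan02 tumors and 3.73 to 162 CPM in the others.

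Hox genes, which keep a memory of body position, were called lower in 9 of 31 tested, beside 8.41% of all genes, and higher in 3 (Hoxa3, Hoxa5 and Hoxa6), a share near the 9.73% of all genes. Those lower were Hoxa9, Hoxa11, Hoxb2, Hoxb7, Hoxc10, Hoxd4, Hoxd8, Hoxd9 and Hoxd10. Hoxa5 was at 35.6 and 29.3 RPKM against 0.87 to 10.7 RPKM. Hoxd9 was at 0.41 and 0.15 RPKM against 9.096 to 17.1 RPKM (log2 difference -3.33 ± 0.16, limma adjusted p = 5.7e-06), and Hoxd10 at 0.033 and 0 against 2.03 to 7.54 RPKM. In tumors Hoxd8, Hoxd9 and Hoxd10 were lower in Pan02 as well, with no overlap between groups.

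Most endothelial and pericyte genes tested were lower in Pan02 CAFs. Of 12 endothelial genes tested, 7 were lower and 0 higher by limma, with 1 (Flt1) higher at an unadjusted p under 0.05 and by edgeR. Of 9 pericyte genes 8 were lower and 1 higher (Notch3). Over all genes tested the shares were 8.41% lower and 9.73% higher. In both Pan02 libraries, 6 of the 13 endothelial and 4 of the 9 pericyte genes stayed under 1 RPKM. Without Pan02 replicate 2, 5 endothelial and 3 pericyte genes were called lower. Cdh5, the endothelial cadherin, was at 1.98 and 1.15 RPKM against 5.71 to 14.3 RPKM, and Rgs5, a pericyte marker, at 4.89 and 4.33 against 22.8 to 96.6 RPKM. The summed level of the 13 endothelial genes was 25.2 and 13.6 RPKM in Pan02 CAFs and 34.7 to 95.2 RPKM in the others. In whole tumors only Egfl7 of the 13 endothelial genes was lower in Pan02, and 3 members were higher. Of the 9 pericyte genes, 2 were called higher in Pan02 tumors and 0 lower. These tumor counts lie near the shares over all genes tested in tumors, 18.1% higher and 8.55% lower. Fabp4, a fatty acid carrier of adipocytes and capillaries, was at 2.61 and 2.11 RPKM against 16.04 to 86.8 RPKM, and Plin4, a lipid droplet protein, was higher, at 6.89 and 3.65 against 0.038 to 0.41 RPKM.

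Of 30 cell cycle genes, 0 were called by limma, and 8 had an unadjusted p under 0.05. Their levels differed between the 2 Pan02 libraries. Mki67 was at 10.2 and 18.5 RPKM and Top2a at 39.6 and 67.6 RPKM in replicates 1 and 2, and 29 of the 30 genes were higher in replicate 2. With edgeR on the reads behind the RPKM values, 1 cell cycle gene was called lower, and without Pan02 replicate 1, 3 were called higher and 1 lower.

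The 2 Pan02 libraries differed in a way that ran along the lists. The median log2 difference, replicate 1 minus replicate 2, was 0.87 for class II genes, 0.95 for iCAF genes, 0.60 for interferon genes, 0.57 for fibroblast genes and -0.79 for cell cycle genes, beside -0.05 over all genes tested. For epithelial genes it was 0.34, and 10 of the 17 tested were higher in replicate 1. Replicate 1 thus held more Cd74 and more Col1a1. The keratins Krt18 (349 and 483 RPKM) and Krt8 (385 and 545 RPKM) went against the epithelial median and were higher in replicate 2. Tspan8, Notum and Krt19 differed less, with ratios of replicate 1 to replicate 2 of 0.919, 1.02 and 1.01. With 1 pair of libraries this is a description with no test.

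**Figure D4:**
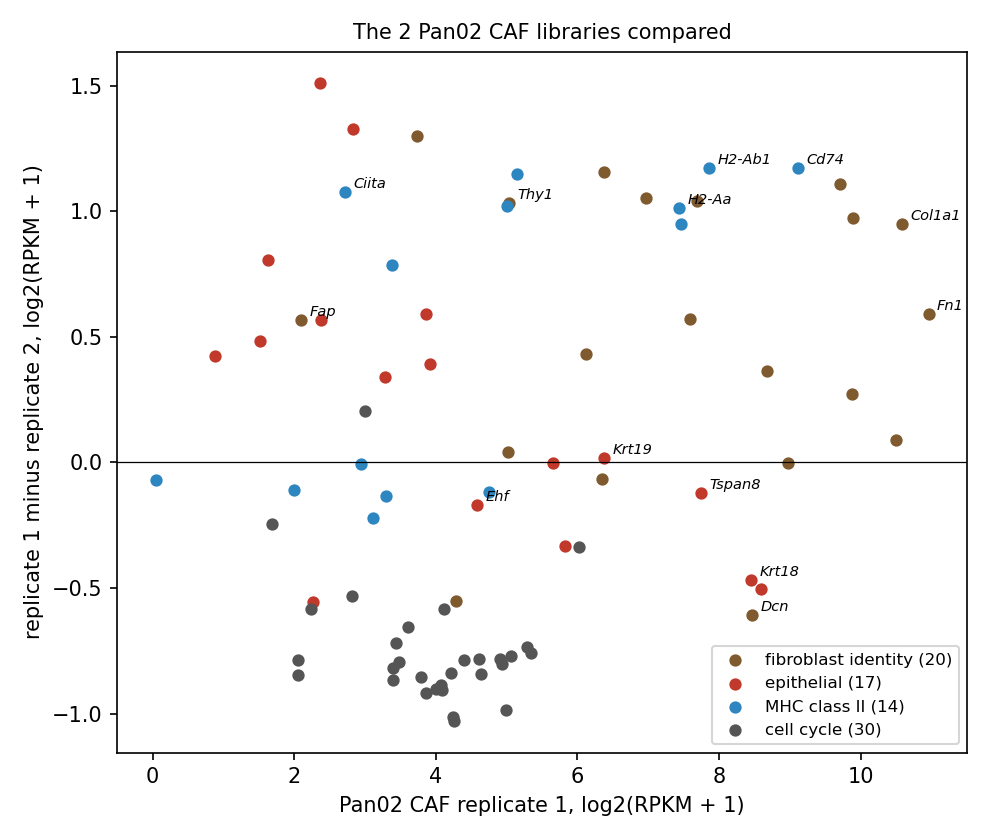
Genes of 4 lists in the 2 Pan02 CAF libraries, by level in replicate 1 (x axis, log2(RPKM + 1)) and by replicate 1 minus replicate 2 (y axis, log2(RPKM + 1)). Cd74, H2-Aa, H2-Ab1 and Ciita lie near 1 with Col1a1 and Thy1, and Tspan8 and Krt18 lie below 0 with nearly all cell cycle genes. Of the 17 epithelial genes, 10 lie above 0.

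In whole tumors, most epithelial, Wnt ligand and receptor and class II genes tested were higher in Pan02, as were several fibroblast genes that were lower in CAFs. The tables were normalised separately, so only differences within each are compared. In tumors 16 of 20 fibroblast identity genes and 15 of 20 myCAF genes were higher in Pan02, beside 18.1% of all genes. Col1a1 was at 20023, 24813 and 26544 CPM in Pan02 tumors and 1078 to 5989 CPM in the others (log2 difference 3.15, edgeR adjusted p = 4.1e-05). Fap was at 5.58, 12.8 and 14.00 CPM against 0.86 to 7.66 CPM, with a log2 difference of 2.14 in tumors (edgeR adjusted p = 5.8e-04) and of -1.31 in CAFs. The difference between the 2 differences was not tested. Wnt ligands and receptors were higher in 23 of 31 tested in tumors. Class II genes were higher in 11 of 16 tested, with Ciita at 29.6, 31.6 and 96.6 CPM against 4.38 to 41.01 CPM, so that the groups overlapped.

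**Figure D5:**
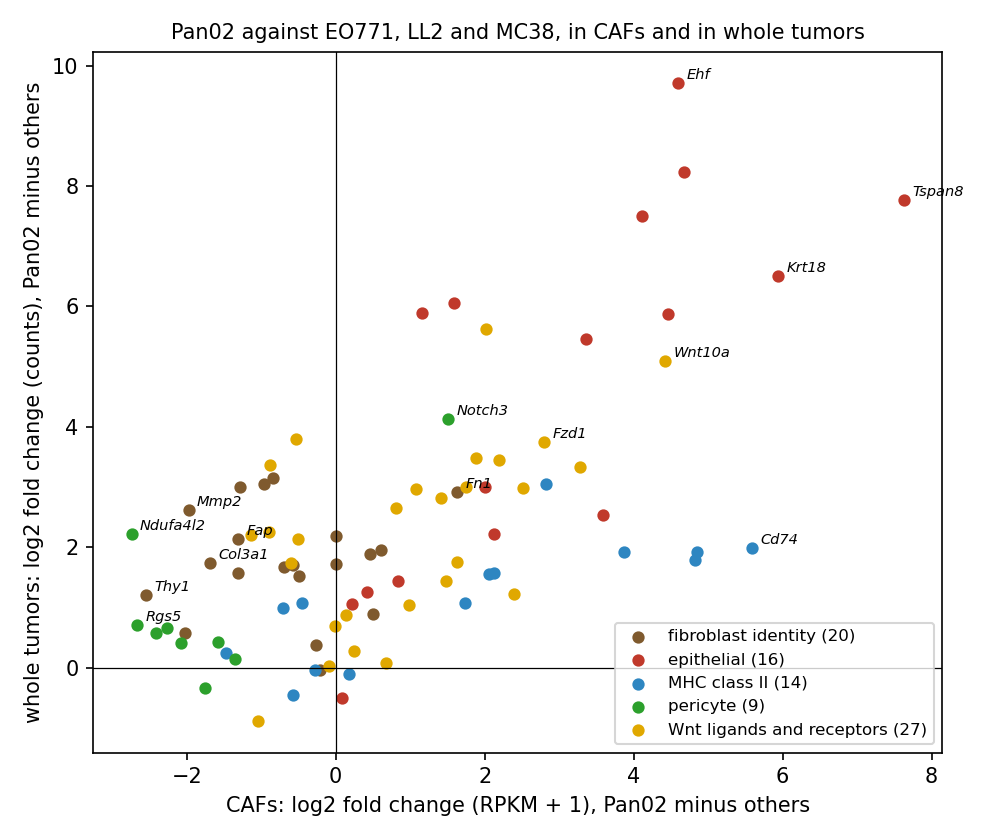
Log2 fold change of Pan02 against EO771, LL2 and MC38 for genes of 5 lists, in CAFs (x axis) and in whole tumors (y axis). Tspan8, Krt18 and Ehf lie high on both axes, while Mmp2, Fap, Thy1, Col3a1 and Ndufa4l2 lie left of 0 and above 0.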

How the data were processed

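CAF levels were deposited as RPKM values per RefSeq transcript, which the authors made by aligning unstranded polyA reads to mm10 with STAR 2.5.0c and counting exons with HOMER. Tumor values were deposited in the unit of expected counts, in steps of 0.5 read, from the same tools, and were rounded to whole numbers here. Between 9267779 and 22841681 reads lay behind a CAF library and 10035173 to 21946486 counts in a tumor. Reads were recovered from the RPKM steps and transcript lengths, and 100.0% of the values checked were multiples of 0.5 read within 0.2 of a step. The row with the largest mean was kept for each symbol. Rows with no gene name (2 in the CAF table) and 5 columns of per-sample values that match no sample were left out.

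For CAFs, limma 3.58.1 in R 4.3.3 was fitted with a variance trend to log2(RPKM + 1) of genes with at least 1 RPKM in 2 libraries. Tumor counts were tested with edgeR 4.0.16 (TMM, quasi-likelihood, default expression filter) over all 15 tumors, including B16-F10 melanoma, for a pooled spread. Both contrasts were Pan02 minus the mean of EO771, LL2 and MC38. Adjusted p-values are Benjamini-Hochberg over all genes tested, and a call also required a log2 change of at least 1. The scripts were tested on simulated data.

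Named genes were the 12 largest rises and 12 largest falls among called genes with at least 10 RPKM on the higher side and no overlap between Pan02 and the other libraries. Members of gene lists were named beside their list counts, and a few of them are not reported here. The members and lists were chosen with earlier results of these data known. Exon overlaps came from GENCODE M21 and promoters from RefSeq on GRCm38.p6. Alternatives were another pseudocount, filter, scaling and transcript choice, edgeR on the recovered reads, DESeq2 1.42.0 for tumors, a replicate block and leaving out each library.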

Additional observations from a re-analysis of the deposited data

Results flagged for a closer look

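The 246 genes checked were the named genes and the list members called in CAFs. Of these, 3 moved in opposite directions in sorted CAFs and in whole tumors. For each, both Pan02 CAF libraries lay below the 6 other CAF libraries, while all 3 Pan02 tumors lay above the 9 other tumors. How many of all genes did so was not counted. By calls alone, 130 of 1122 genes lower in CAFs (11.6%) were higher in tumors. Mmp2, a gelatinase, had a log2 difference of -1.98 in CAFs and 2.62 in tumors, with 81.7 and 36.1 RPKM against 152 to 325 RPKM in CAFs and 389.9, 1115 and 1262 CPM against 82.1 to 332 CPM in tumors. Ndufa4l2, a mitochondrial protein of pericytes, had -2.74 in CAFs and 2.22 in tumors, with 8.55 and 4.93 RPKM against 23.4 to 150.4 RPKM and 45.03, 54.7 and 89.2 CPM against 4.58 to 32.1 CPM. Myh11, the smooth muscle myosin, had -1.50 in CAFs and 1.61 in tumors, with 0.61 and 0.35 RPKM against 2.02 to 9.97 RPKM and 7.396, 8.12 and 9.89 CPM against 1.32 to 4.79 CPM. The call of Myh11 in CAFs was lost without Pan02 replicate 1 (limma adjusted p = 0.051) and without replicate 2 (0.080). The difference between CAFs and tumors was not tested, since the tables were normalised separately.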

How the results depend on the processing

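Against 1323 genes higher, 1144 lower, 678 higher than in each other model and 340 lower than in each, edgeR on the recovered reads gave 2030, 1918, 849 and 680, a pseudocount of 0.1 gave 1699, 1814, 756 and 625, and an adjusted p alone gave 3682, 3600, 1431 and 915. EdgeR kept 1306 of the 1323 higher calls (98.7%) and 1099 of the 1144 lower calls (96.1%). Other filters, scaling, transcript choice and the variance trend gave 1091 to 1327 higher and 935 to 1144 lower. Leaving out 1 library gave 1108 to 1345, 1054 to 1307, 490 to 695 and 279 to 492, where a lone Pan02 library was assumed to vary like the other groups. In tumors leaving out 1 tumor gave 2702 to 3153 higher and 1304 to 1477 lower, DESeq2 gave 2986 and 1373, and no filter gave 3200 and 1444. With a replicate block the CAF counts were 1325, 1165, 679 and 352 and the tumor counts 2762 and 1365. Replicate numbers were not treated as pairs in the main fits. Deviations of same-numbered libraries correlated between -0.14 and 0.28 in CAFs and between -0.17 and 0.27 in tumors. The highest CAF values were those of Pan02 with LL2 (0.28) and with MC38 (0.25). Whether same-numbered CAF libraries shared a round of sorting was not tested. Of the 24 named genes, 20 kept their call in CAFs in every alternative run, and Tspan8, Cldn2, Kirrel3 and Foxq1 did in all but those without a Pan02 CAF library, where they did not pass the filter and were not tested. Leaving out 1 tumor moved the tumor log2 difference of Actg2 between -0.0894 and 2.46, of Il11 between -0.0893 and 3.46 and of Col23a1 between -1.78 and 1.12, each lowest without Pan02 tumor replicate 1, and of Ptgs2 between -0.249 and 1.72, lowest without Pan02 tumor replicate 2. The cause was not tested. With 2 libraries per model, a change specific to a sort cannot be told apart from the model.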

Other observations

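Genes outside the lists, named after their values were seen, included transcription factors of pancreas and foregut. Pdx1, which specifies the pancreas, was at 34.2 and 35.3 RPKM in Pan02 CAFs and 0 to 0.26 RPKM in the other CAFs (log2 difference 5.05, limma adjusted p = 8.0e-07). Foxa2 was at 5.37 and 5.29 RPKM against 0 to 1.23 RPKM and Gata6 at 10.8 and 8.93 against 0.15 to 3.96 RPKM. All 3 were called higher in both Pan02 CAFs and Pan02 tumors. Pan02 tumors held 25.8, 44.2 and 58.5 CPM of Pdx1 and the other tumors 0 to 0.15 CPM. Pan02 is itself a pancreatic ductal carcinoma line, and the part of cancer cells in these CAF values was not tested.

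Twist2, a transcription factor of mesenchyme, was at 3.44 and 2.54 RPKM in Pan02 CAFs against 27.97 to 69.9 RPKM (log2 difference -3.68, limma adjusted p = 4.5e-06), and Prrx1, a factor of limb and connective tissue mesenchyme, was at 6.33 and 3.64 against 6.78 to 50.7 RPKM. Smad4, the shared partner of TGF-beta and BMP signals, was at 8.04 and 6.503 RPKM against 10.99 to 26.5 RPKM (log2 difference -1.25).

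Pparg, a regulator of fat cells, was higher, at 3.73 and 3.42 RPKM against 0.030 to 1.33 RPKM, and Lpl, lipoprotein lipase, was lower, at 3.43 and 1.26 against 5.88 to 14.2 RPKM. Of the skeletal muscle list 5 genes were tested, with Tnni2 higher and Mylpf and Des lower. Of the T and NK cell list none of 13 genes passed the filter, and of the B and neutrophil lists 1 and 2 did, with Cd79a and Mmp9 lower.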
